A study of Rattus norvegicus with 18 samples.

Results

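The genes described here make or sense GABA (gamma-aminobutyric acid). Gad1 and Gad2 synthesise it, Gabbr1 and Gabbr2 form the metabotropic GABA-B receptor, and Gabra4, Gabra5 and Gabrb2 are subunits of the ionotropic GABA-A receptors. Members were taken as every probe set whose platform gene symbol was one of these 7 names, which gave 14 of the 15923 probe sets on the array: 2 for Gad1, 1 for Gad2, 5 for Gabbr1, 2 for Gabbr2, 1 for Gabra4, 1 for Gabra5 and 2 for Gabrb2. RNA came from rat hippocampus, and each of 18 samples was hybridised to 1 Affymetrix array. The series title says that the study concerned learning disabilities in rats exposed to alcohol as fetuses, and the labels give each sample a diet and a training state. The 6 groups were alcohol diet with CFC training (4 arrays), alcohol diet naive (4), isocaloric diet with CFC training (4), isocaloric diet naive (2), control diet with CFC training (2) and control diet naive (2). CFC is not spelled out in the labels, and the strain, the age, the alcohol dose and the time of exposure were not given in the sources used here. Nothing in the labels ties a replicate to an animal or litter of its own. The p-values set each difference against the spread of these arrays within groups. That spread may be technical, so they need not speak for animals or litters.

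GABA is the main inhibitory transmitter of the hippocampus and is made from glutamate by the 2 glutamate decarboxylases in interneurons. It opens chloride channels, the GABA-A receptors, which are pentamers of several subunit types. It also acts through the GABA-B receptor, a heterodimer coupled to G proteins that opens potassium channels and restrains transmitter release.

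Expression was measured as 1 signal intensity per probe set, scaled by the depositors to a common level on each array, and is given as log2(signal + 6.06), called the log2 level. A difference is a log2 fold change from limma with its standard error (SE), and it was called when the Benjamini-Hochberg adjusted p over all 9520 tested probe sets was under 0.05. Diet differences are the mean of the difference among trained and the difference among naive arrays. Each probe set has its own probes, so a higher level of one was not read as more transcript than a lower level of another. Total signal per array lay between 2.92e+06 and 3.13e+06, and the lowest correlation between 2 arrays was 0.950. In control naive replicate 1 and control trained replicate 2 alone, the processing notes name MAS5 and every value was written with at most 6 digits. The control naive replicate 2 array had the lowest mean correlation with the others (0.960), and 6 arrays were high in the choroid plexus transcript Ttr. The number of arrays, 4 of them on the control diet, limits the precision. Hippocampal pyramidal and granule cell markers were measured (7 of 8 listed genes), Prox1 and Wfs1 among them. By the brightest probe set of each gene, limma called 0 of 7 in the 3 diet comparisons and in the averaged training comparison, with 0 to 3 at an unadjusted p under 0.05, while a dimmer Wfs1 probe set was higher for alcohol against control (0.42, adjusted p = 0.0113).

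The promoters of the 5 genes with at least 1 called probe set are shown because these genes were higher than on the control diet in the same hippocampal samples. Sequences are from RefSeq, build GRCr8, and run from 250 bases before to 50 bases after the annotated start of each gene, 5′ to 3′ on the gene's strand. Of the 7 members, 7 had an entry. The windows lie at chr3:75777202-75777501 (plus strand) for Gad1, chr17:89671468-89671767 (plus) for Gad2, chr20:1499187-1499486 (minus) for Gabbr1, chr5:66083646-66083945 (minus) for Gabbr2 and chr10:27439543-27439842 (plus) for Gabrb2. Capitals mark matches to the GC box GGGCGG or the TATA box TATAAA, on either strand.
Gad1: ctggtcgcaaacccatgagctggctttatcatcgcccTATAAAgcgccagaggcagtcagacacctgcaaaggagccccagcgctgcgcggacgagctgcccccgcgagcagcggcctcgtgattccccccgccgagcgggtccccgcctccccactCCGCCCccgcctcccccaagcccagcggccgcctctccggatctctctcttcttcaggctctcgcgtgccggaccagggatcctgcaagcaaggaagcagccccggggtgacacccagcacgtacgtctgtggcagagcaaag
Gad2: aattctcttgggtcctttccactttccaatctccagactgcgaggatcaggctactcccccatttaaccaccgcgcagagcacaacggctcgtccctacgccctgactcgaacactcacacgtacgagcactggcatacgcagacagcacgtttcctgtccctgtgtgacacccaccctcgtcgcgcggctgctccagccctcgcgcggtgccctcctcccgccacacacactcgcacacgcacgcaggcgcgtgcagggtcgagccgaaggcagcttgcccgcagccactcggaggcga
Gabbr1: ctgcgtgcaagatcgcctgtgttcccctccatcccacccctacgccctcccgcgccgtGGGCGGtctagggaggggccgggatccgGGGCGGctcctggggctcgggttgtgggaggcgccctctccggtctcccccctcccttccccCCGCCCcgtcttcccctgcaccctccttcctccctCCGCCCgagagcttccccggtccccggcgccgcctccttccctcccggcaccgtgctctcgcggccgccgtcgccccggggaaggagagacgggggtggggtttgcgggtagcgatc
Gabbr2: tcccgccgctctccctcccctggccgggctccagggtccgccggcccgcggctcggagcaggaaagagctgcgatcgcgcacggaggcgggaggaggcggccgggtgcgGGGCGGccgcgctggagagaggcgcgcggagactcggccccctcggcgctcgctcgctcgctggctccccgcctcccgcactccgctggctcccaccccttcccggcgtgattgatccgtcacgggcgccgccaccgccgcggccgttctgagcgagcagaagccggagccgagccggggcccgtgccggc
Gabrb2: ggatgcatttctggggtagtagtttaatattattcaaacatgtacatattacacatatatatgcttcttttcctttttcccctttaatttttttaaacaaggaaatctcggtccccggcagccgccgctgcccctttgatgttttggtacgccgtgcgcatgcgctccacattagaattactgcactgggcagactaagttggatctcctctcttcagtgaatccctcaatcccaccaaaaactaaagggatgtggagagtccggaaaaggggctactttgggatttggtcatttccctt

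The Gabbr1 window held 4 GC boxes, the Gad1 and Gabbr2 windows 1 each, and those of Gad2 and Gabrb2 held 0. The windows of Gabra4 and Gabra5, which had no called probe set, held 1 each. Over 33469 rat promoters of the same length, 33.1% held at least 1 GC box. A TATA box was found in the Gad1 window alone among the members, against 14.2% of all promoters. The cyclic AMP response element TGACGTCA was found in 0 of 7 member windows and in 1.83% of all promoters. The share of G and C was 67.7% for Gad1, 63.7% for Gad2, 75% for Gabbr1, 78.7% for Gabbr2 and 44% for Gabrb2, where the median of all promoters was 51.7%. None of the 3 motifs was found in all 5 called genes, and a match describes letters in this window, not binding.

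**Figure D1:**
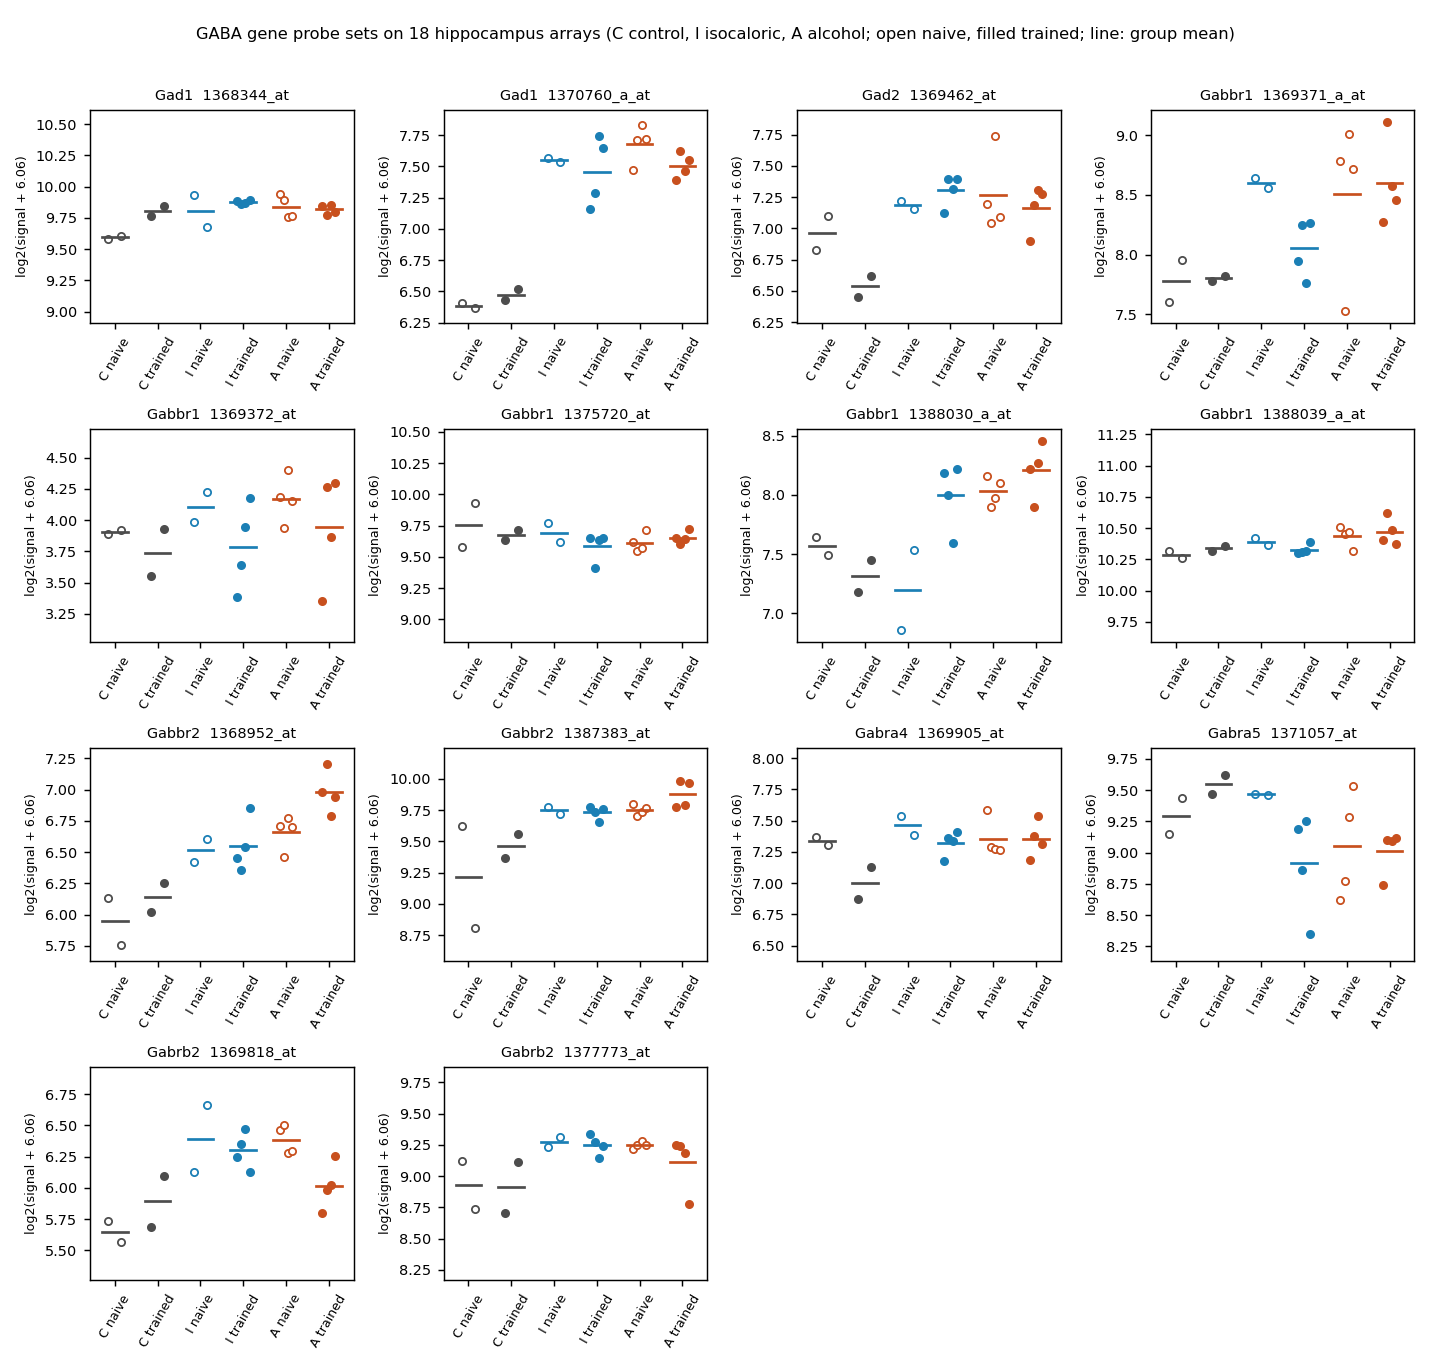
Log2 level, log2(signal + 6.06), of the 14 member probe sets in the 6 groups (C control, I isocaloric, A alcohol; open points naive, filled points trained). Each point is 1 array and each bar is a group mean. The 4 control arrays lie below all others for Gad1 probe set 1370760_a_at and for both Gabbr2 probe sets. The share of all tested probe sets with such a separation is not given here.

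Of the 14 probe sets, 13 passed the filter on low signal. Compared with the control diet, 7 of the 13 tested probe sets (53.8%), of 5 genes, rose on the alcohol diet and 0 fell, where 19.9% of all tested probe sets were called and 11.3% were called higher. On the isocaloric diet 6 of 13 (46.2%), of 4 genes, rose against control and 0 fell, where 7.05% of all were called and 4.24% were called higher. These background counts turned on the control arrays too: 1895 probe sets were called for alcohol against control, but 580 without control naive replicate 2, 3024 without control naive replicate 1, 899 and 1028 without control trained replicates 1 and 2, and 224 without the 6 arrays high in Ttr. For isocaloric against control the 671 calls became 111, 2362, 168 and 224 without the same control arrays in that order, 263 and 81 without isocaloric naive replicates 1 and 2, 441 without isocaloric trained replicate 4, and 30 without the arrays high in Ttr. The median member difference was 0.43 for alcohol and 0.34 for isocaloric against control, and the median of all tested probe sets was -0.00 and 0.02. These 2 comparisons share the same 4 control arrays, so they are not independent. The members were chosen with earlier results of these data known, so their share beside all probe sets describes them and tests nothing. Where arrays of 2 diets are said below not to overlap, this was not counted over all tested probe sets, so it is description only. Between alcohol and isocaloric diet, 1 of 13 (7.69%) rose and 0 fell, where 3.06% of all were called and 1.47% were called higher, and the member median was -0.01 against -0.02 for all. In whole tissue, fewer cells of a type and less RNA per cell cannot be told apart.

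**Figure D2:**
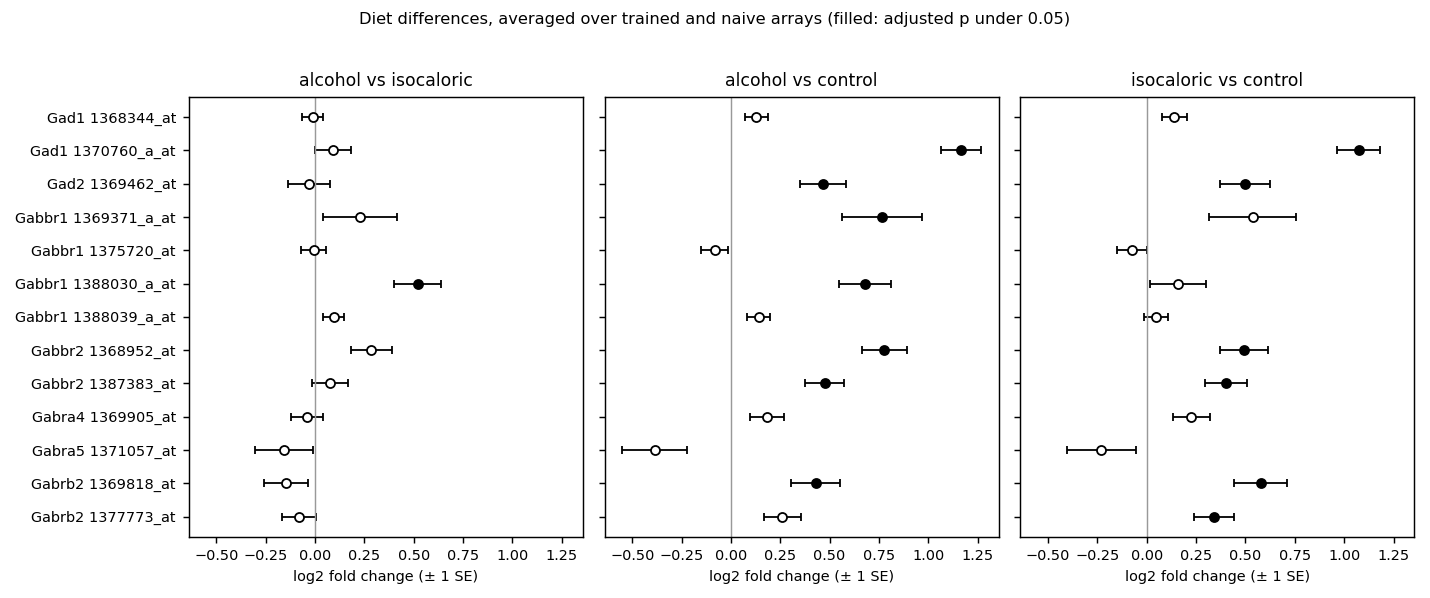
Log2 fold change ± 1 SE of the 13 tested member probe sets in the 3 diet comparisons, averaged over trained and naive arrays; filled points have an adjusted p under 0.05. Against control, 7 (alcohol) and 6 (isocaloric) points are filled, all to the right of 0, and between alcohol and isocaloric 1 is filled.

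Gad1 encodes the glutamate decarboxylase that makes most of the brain's GABA. Its probe set 1370760_a_at, a type of Affymetrix set that can match several transcripts of the gene, was more than 2-fold higher on both other diets than on control. The control naive arrays read 6.41 and 6.37 and the control trained arrays 6.43 and 6.52. Isocaloric naive arrays were at 7.56 and 7.54 and isocaloric trained arrays at 7.16, 7.28, 7.74 and 7.65. Alcohol naive arrays were at 7.47, 7.71, 7.83 and 7.72 and alcohol trained arrays at 7.39, 7.62, 7.46 and 7.55. Every array of both other diets lay above all 4 control arrays, while alcohol and isocaloric arrays overlapped. The level rose by 1.16 (SE 0.10, adjusted p = 1.82e-06 by limma, 2.24-fold) on alcohol and by 1.07 (SE 0.11, adjusted p = 2.56e-05, 2.10-fold) on isocaloric diet. Alcohol and isocaloric diet differed by 0.09 (SE 0.09, adjusted p = 0.603). Both calls held under all 32 alternative settings.

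The other Gad1 probe set, 1368344_at, did not pass the test in any diet comparison. Its level was 9.58 and 9.61 on control naive, 9.77 and 9.85 on control trained, 9.94 and 9.67 on isocaloric naive arrays. On isocaloric trained arrays it ran from 9.86 to 9.89, on alcohol naive arrays from 9.76 to 9.94 and on alcohol trained arrays from 9.77 to 9.86. The control naive arrays were the lowest and the control trained arrays lay within the range of the other diets. The difference from control was 0.13 (SE 0.06, adjusted p = 0.125) for alcohol and 0.14 (SE 0.06, adjusted p = 0.168) for isocaloric diet. Subtracting 1368344_at from 1370760_a_at on each array gave -3.33 to -3.17 on control, -2.72 to -2.13 on isocaloric and -2.47 to -1.92 on alcohol arrays. The control range of this difference did not overlap with either other diet, so the 2 probe sets of Gad1 changed unequally between control and the other diets. The adjusted p of the second probe set was 0.0273 for isocaloric against control after quantile normalization.

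**Figure D3:**
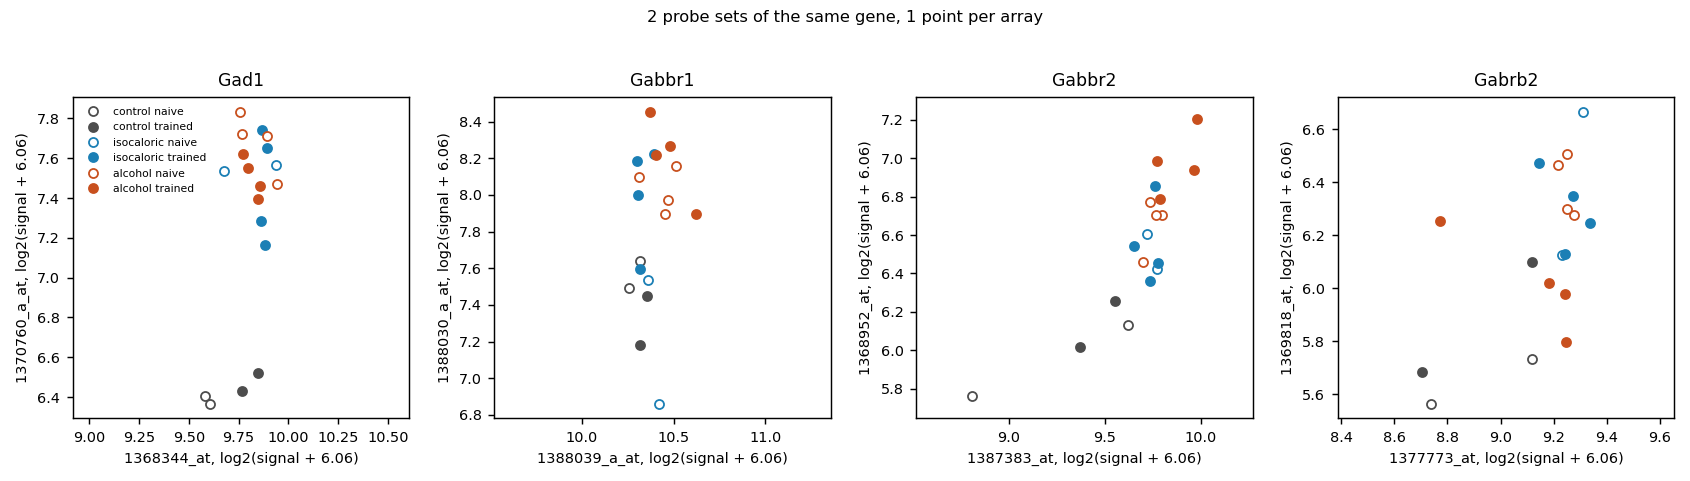
Log2 levels, log2(signal + 6.06), of 2 probe sets of the same gene for Gad1, Gabbr1, Gabbr2 and Gabrb2, the brightest on the x axis; each point is 1 array, coloured by diet (open points naive, filled points trained). In the Gad1 panel the 4 control arrays have a difference between the probe sets of -3.33 to -3.17, apart from the -2.72 to -1.92 of the other 14 arrays.

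Gad2 encodes the other glutamate decarboxylase, which is enriched at synaptic terminals. Its single probe set was higher on both other diets than on control. Control naive arrays read 6.83 and 7.10 and control trained arrays 6.45 and 6.62. On isocaloric naive arrays the level was 7.21 and 7.16, and on isocaloric trained arrays 7.12, 7.39, 7.32 and 7.40. Alcohol naive arrays read 7.19, 7.04, 7.73 and 7.09 and alcohol trained arrays 6.90, 7.18, 7.31 and 7.27. All isocaloric arrays lay above all control arrays, while the alcohol arrays overlapped with control naive replicate 2. It rose by 0.47 (SE 0.12, adjusted p = 0.0111, 8 of 8 arrays above the matching control mean) on alcohol and by 0.50 (SE 0.13, adjusted p = 0.0271, 6 of 6) on isocaloric diet. Alcohol and isocaloric diet differed by -0.03 (SE 0.11, adjusted p = 0.907). With the Actb ratio of 3′ to 5′ probe sets as a covariate, both calls against control were lost. The differences were then 0.39 (adjusted p = 0.178) for alcohol and 0.43 (adjusted p = 0.246) for isocaloric diet. With the replicate number as a block the alcohol against control difference was 0.36 (adjusted p = 0.0507). Without control trained replicate 1 both calls were lost, at differences of 0.43 for alcohol and 0.46 for isocaloric against control. The alcohol call was also lost without the 6 arrays high in Ttr, at 0.40. The isocaloric call was also lost without isocaloric naive replicate 1 or 2, at differences of 0.48 and 0.51. It was lost as well without control naive replicate 2 (0.57) or control trained replicate 2 (0.54), where the difference was larger than in the main fit.

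Gabbr2 encodes the GABA-B subunit that couples to G proteins, and both of its probe sets rose on both other diets. For 1368952_at the control naive arrays read 6.13 and 5.76 and the control trained arrays 6.02 and 6.26. Isocaloric naive arrays read 6.42 and 6.61, and isocaloric trained arrays 6.46, 6.36, 6.54 and 6.85. Alcohol naive arrays read 6.71, 6.46, 6.77 and 6.70, and alcohol trained arrays 6.98, 7.20, 6.79 and 6.94. Each of the 14 arrays of the other diets was above each control array, and the alcohol trained arrays included the highest. The level rose by 0.78 (SE 0.11, adjusted p = 0.0003, 1.71-fold) on alcohol and by 0.49 (SE 0.12, adjusted p = 0.0240, 1.41-fold) on isocaloric diet. The difference between alcohol and isocaloric diet was 0.29 (SE 0.10, adjusted p = 0.119, higher in 7 of 8 arrays), and it passed after median centring (0.36, adjusted p = 0.0347) and with array weights (0.30, adjusted p = 0.0356). The isocaloric call was lost without isocaloric naive replicate 2, control naive replicate 2 or control trained replicate 1, at differences of 0.45, 0.40 and 0.43 in that order.

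The second Gabbr2 probe set, 1387383_at, read 9.62 and 8.81 on control naive and 9.37 and 9.56 on control trained arrays. Isocaloric arrays lay between 9.65 and 9.78, with a median of 9.75, and alcohol arrays between 9.70 and 9.98, with a median of 9.78. Again no control array reached any array of the other diets, and control naive replicate 2 was the lowest by far. It rose by 0.47 (SE 0.10, adjusted p = 0.0039, 8 of 8 arrays) on alcohol and by 0.40 (SE 0.11, adjusted p = 0.0328, 6 of 6) on isocaloric diet, and these diets differed by 0.07 (SE 0.09, adjusted p = 0.676). Control naive replicate 2 carried much of the size: without it the differences were 0.27 (adjusted p = 0.0173) and 0.20 (adjusted p = 0.188), and without the 6 arrays high in Ttr the alcohol difference was 0.44 (adjusted p = 0.122). Without control naive replicate 1 the isocaloric difference was 0.60 (adjusted p = 1.38e-05). The isocaloric call was also lost without isocaloric trained replicate 1 (0.39, adjusted p = 0.0505) or 4 (0.40, adjusted p = 0.0543). It was lost as well without isocaloric naive replicate 1 or 2 (differences 0.39 and 0.41), or control trained replicate 1 or 2 (0.35 and 0.45).

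Gabbr1 encodes the GABA-B subunit that binds GABA, and its 4 tested probe sets did not move alike. The set 1388030_a_at was the one member called between alcohol and isocaloric diet. Control naive arrays read 7.64 and 7.49 and control trained arrays 7.18 and 7.45. Isocaloric naive arrays read 6.86 and 7.54, and isocaloric trained arrays 8.19, 8.0, 7.59 and 8.22. Alcohol naive arrays read 8.16, 7.90, 7.97 and 8.10, and alcohol trained arrays 8.22, 7.89, 8.27 and 8.45. All 8 alcohol arrays were above all control arrays and above both isocaloric naive arrays, and they overlapped with the isocaloric trained arrays. The level rose by 0.68 (SE 0.13, adjusted p = 0.0024, 1.60-fold) on alcohol against control and by 0.52 (SE 0.12, adjusted p = 0.0266, 1.43-fold) against isocaloric diet. Isocaloric and control diet differed by 0.16 (SE 0.14, adjusted p = 0.525). Without isocaloric naive replicate 1, the lowest array, the alcohol against isocaloric difference was 0.35 (adjusted p = 0.215), and without the 6 arrays high in Ttr it was 0.37 (adjusted p = 0.307). This call was also lost without alcohol trained replicate 3 (0.51, adjusted p = 0.0535), alcohol naive replicate 1 (0.50, adjusted p = 0.0504) or alcohol naive replicate 3 (0.53, adjusted p = 0.0524). Without the arrays high in Ttr the alcohol against control difference was 0.56 (adjusted p = 0.0605).

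The Gabbr1 probe set 1369371_a_at was called for alcohol against control. The 4 control arrays lay between 7.61 and 7.95, the 6 isocaloric arrays between 7.76 and 8.64 and the alcohol arrays between 7.53 and 9.11. Alcohol naive replicate 2, at 7.53, was the lowest of all 18 arrays, and the 7 other alcohol arrays lay above every control array. It rose by 0.77 (SE 0.20, adjusted p = 0.0147, 7 of 8 arrays) on alcohol, and the isocaloric difference was 0.54 (SE 0.22, adjusted p = 0.136). The alcohol call was lost without control trained replicate 1 and without both arrays named for MAS5, at differences of 0.76 and 0.69. Without alcohol naive replicate 2 the isocaloric difference had an adjusted p of 0.0321, and that array enters this comparison through the shared estimate of the spread. The set 1388039_a_at differed from control by 0.14 (SE 0.06, adjusted p = 0.0949) on alcohol and by 0.05 (SE 0.06, adjusted p = 0.696) on isocaloric diet. The set 1375720_at differed by -0.08 (SE 0.07, adjusted p = 0.427) and -0.07 (SE 0.07, adjusted p = 0.574). The set 1369372_at was below the filter, with log2 levels from 3.35 to 4.40, and was not tested.

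Gabrb2 encodes a beta subunit common in synaptic GABA-A receptors, and its probe set 1369818_at rose on both other diets. Control naive arrays read 5.73 and 5.56 and control trained arrays 5.68 and 6.10. Isocaloric naive arrays read 6.12 and 6.66, and isocaloric trained arrays 6.25, 6.35, 6.47 and 6.13. Alcohol naive arrays read 6.46, 6.51, 6.28 and 6.30, and alcohol trained arrays 5.80, 5.98, 6.02 and 6.25. All isocaloric arrays lay above all control arrays, while 3 alcohol trained arrays lay below control trained replicate 2. The level rose by 0.43 (SE 0.12, adjusted p = 0.0215, 7 of 8 arrays) on alcohol and by 0.58 (SE 0.13, adjusted p = 0.0172, 6 of 6) on isocaloric diet. These diets differed by -0.15 (SE 0.11, adjusted p = 0.465). The alcohol call was lost without control naive replicate 2 or control trained replicate 1, at differences of 0.39 and 0.33. It was also lost without the 6 arrays high in Ttr, where the difference was 0.24. The isocaloric call was lost without isocaloric naive replicate 2, control naive replicate 2 or control trained replicate 1, at differences of 0.44, 0.54 and 0.47 in that order.

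The second Gabrb2 probe set, 1377773_at, stood at the threshold. It read 9.12 and 8.74 on control naive and 8.71 and 9.12 on control trained arrays, from 9.14 to 9.34 on isocaloric arrays and from 8.77 to 9.28 on alcohol arrays. Isocaloric and control arrays did not overlap, and alcohol trained replicate 4 alone among the alcohol arrays lay within the control range. It rose by 0.34 (SE 0.10, adjusted p = 0.0487) on isocaloric diet, a call lost in 15 of the 18 fits that left out 1 array. Over the 18 fits the difference ran from 0.24 to 0.44. Some of these losses came from leaving out an alcohol array, with the difference still 0.34 and adjusted p from 0.0525 to 0.0617. Alcohol arrays enter this comparison only through the shared estimate of the spread. The alcohol difference was 0.26 (SE 0.09, adjusted p = 0.0567), and it passed without alcohol trained replicate 4 (0.32, adjusted p = 0.0122), control naive replicate 1 (0.36, 0.0104) or control trained replicate 2 (0.36, 0.0288).

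Gabra4 and Gabra5 encode alpha subunits of receptors that lie largely outside synapses and carry tonic inhibition, and neither passed in any diet comparison. For Gabra4 the control naive arrays read 7.37 and 7.30 and the control trained arrays 6.88 and 7.13. Isocaloric arrays ran from 7.18 to 7.54 and alcohol arrays from 7.19 to 7.58. Both control trained arrays were below all other arrays, and the control naive arrays lay within the other diets' range. The Gabra4 difference from control was 0.18 (SE 0.09, adjusted p = 0.145) for alcohol and 0.22 (SE 0.09, adjusted p = 0.144) for isocaloric diet.

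Gabra5 was the member with the most negative difference from control. Control naive arrays read 9.15 and 9.44, control trained arrays 9.47 and 9.62, and isocaloric naive arrays 9.47 and 9.46. Isocaloric trained arrays read 9.19, 8.86, 9.25 and 8.35, alcohol naive arrays 8.62, 8.77, 9.28 and 9.53, and alcohol trained arrays 8.74, 9.10, 9.09 and 9.12. The ranges overlapped, with the lowest value in isocaloric trained replicate 4. The difference from control was -0.39 (SE 0.16, adjusted p = 0.101, lower in 7 of 8 arrays) for alcohol and -0.23 (SE 0.18, adjusted p = 0.440, lower in 4 of 6) for isocaloric diet. Without alcohol naive replicate 4 the alcohol difference was -0.47 (adjusted p = 0.0410).

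The comparison of trained with naive arrays asks which transcripts differ after CFC training. In the averaged comparison limma called 0 of 13 member probe sets, with 2 at an unadjusted p under 0.05, where 0.0105% of all tested probe sets (1 of 9520) were called and 566 had such an unadjusted p. The members' differences ran from -0.16 to 0.24. The smallest adjusted p among them was 0.810, for Gabbr1 probe set 1388030_a_at (0.24, SE 0.11, higher in 7 of 10 trained arrays), and Gabra4 followed with -0.16 (SE 0.07, adjusted p = 0.814, lower in 8 of 10). Gabbr2 probe set 1387383_at differed by 0.12 (SE 0.08, adjusted p = 0.914) but without control naive replicate 1 by 0.25 (adjusted p = 0.0212) and without control naive replicate 2 by -0.02 (adjusted p = 0.959), so its direction turned on 1 array.

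Within the isocaloric diet limma called 0 of 13 for training, with 2 at an unadjusted p under 0.05, and 0% of all tested probe sets were called, with 678 at such an unadjusted p. Gabbr1 probe set 1388030_a_at had the largest difference, 0.80 (SE 0.19, adjusted p = 0.275), with all 4 trained arrays above both naive arrays. With array weights its adjusted p was 0.0425 at a difference of 0.78. Gabra5 was next in size at -0.55 (SE 0.23, adjusted p = 0.661), with all 4 trained arrays below both naive arrays. The Gabbr1 probe set 1369371_a_at ran opposite to 1388030_a_at, at -0.54 (SE 0.29, adjusted p = 0.738), also with all 4 trained arrays below both naive arrays. Within the alcohol diet 0 of 13 were called, with 2 at an unadjusted p under 0.05, and 0% of all were called, with 818 at such a p. There Gabrb2 probe set 1369818_at differed by -0.37 (SE 0.14, adjusted p = 0.501) and Gabbr2 probe set 1368952_at by 0.32 (SE 0.13, adjusted p = 0.507), both with trained and naive arrays apart. The test of whether training differed between alcohol and isocaloric diet called 0 of 13, with 1 at an unadjusted p under 0.05, and 0% of all, with 401 at such a p. For Gabbr1 probe set 1388030_a_at this interaction was -0.62 (SE 0.24, adjusted p = 1.00), and for 1369371_a_at of the same gene it was 0.63 (SE 0.37, adjusted p = 1.00).

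**Figure D4:**
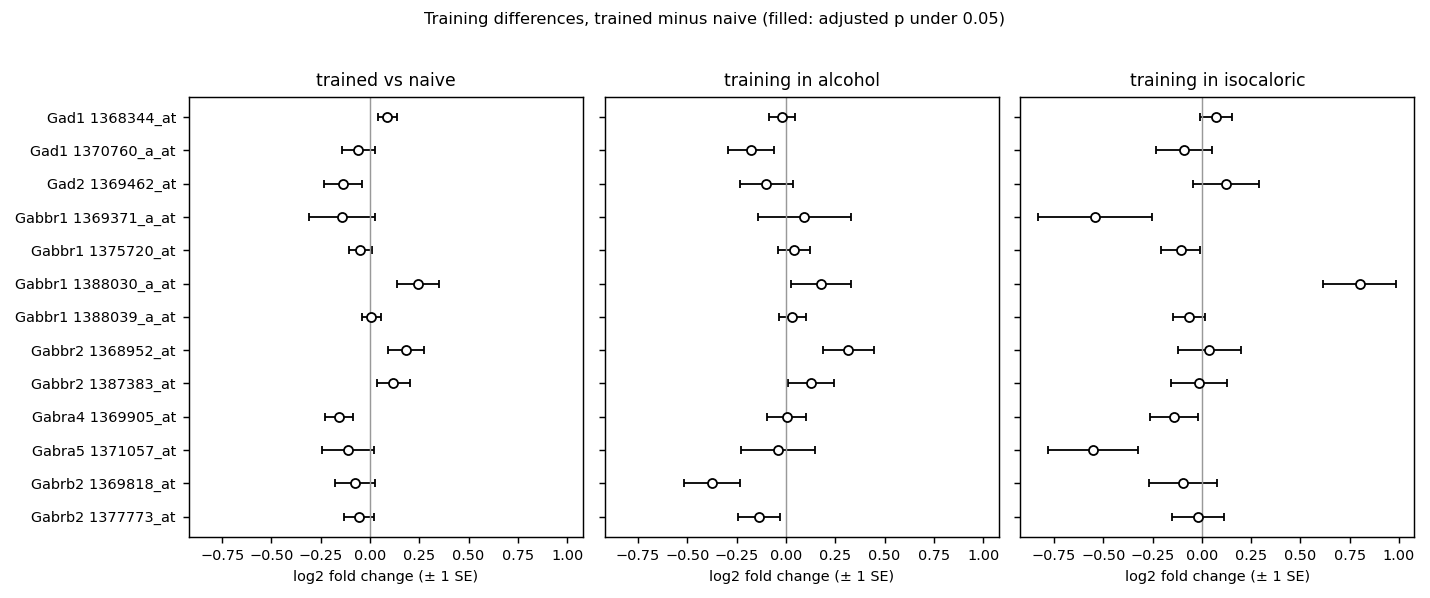
Log2 fold change ± 1 SE, trained minus naive, of the 13 tested member probe sets over all diets and within the alcohol and the isocaloric diet; filled points would have an adjusted p under 0.05, and 0 do. The widest departures, within the isocaloric diet, are Gabbr1 1388030_a_at at 0.80 and Gabra5 at -0.55.

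A list of 45 other genes of the pathway was examined beside the members: further GABA-A subunits, transport and breakdown, scaffold and trafficking proteins, chloride transporters and potassium channels. Of these, 25 genes with 34 probe sets were tested. Against control, 5 of the 34 probe sets rose and 2 fell on the alcohol diet (20.6% called, of 6 genes, median difference 0.13), a share near the 19.9% of all tested probe sets. On the isocaloric diet 1 rose and 0 fell (2.94%, median 0.14), below the 7.05% of all tested probe sets. All of these calls were lost without the 6 arrays high in Ttr (adjusted p from 0.0828 for Glul to 0.383 for Trak2) and with the Actb ratio of 3′ to 5′ probe sets as a covariate (from 0.0533 for Nlgn2 to 0.614 for Trak2). Nsf, an ATPase that disassembles SNARE complexes and takes part in receptor trafficking, was called in both. Its brightest probe set, 1372528_at, was not called and had means of 10.85 on control, 11.05 on isocaloric and 11.04 on alcohol arrays. Its probe set 1369689_at rose by 0.59 (SE 0.13, adjusted p = 0.0059) on alcohol and by 0.53 (SE 0.14, adjusted p = 0.0344) on isocaloric diet, and 1369690_at rose by 0.35 (SE 0.11, adjusted p = 0.0273) on alcohol. Control arrays of 1369689_at ran from 9.19 to 10.34, and without control naive replicate 2, the lowest array, its differences were 0.30 (adjusted p = 0.0230) and 0.24 (adjusted p = 0.176). Without that array the difference of 1369690_at was 0.14 (adjusted p = 0.262), and without control naive replicate 1 it was 0.56. The isocaloric call of 1369689_at was also lost without control trained replicate 1 or 2, at differences of 0.47 and 0.59. It was lost as well without isocaloric trained replicate 4 (0.51, adjusted p = 0.0601), or isocaloric naive replicate 1 or 2 (differences 0.53 and 0.52). Without control naive replicate 1 its difference was 0.82. The alcohol call of 1369690_at was also lost without control trained replicate 1 or 2, at differences of 0.32 and 0.39.

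Glul, the glutamine synthetase that supplies the precursor of glutamate and GABA, rose on alcohol by 0.43 (SE 0.09, adjusted p = 0.0030) in 1 of its 3 probe sets. Nlgn2, an adhesion protein of inhibitory synapses, rose by 0.42 (SE 0.10, adjusted p = 0.0097), and Kcnj9, a subunit of the potassium channels opened by GABA-B receptors, by 0.38 (SE 0.12, adjusted p = 0.0327). Kctd12, an auxiliary subunit of the GABA-B receptor, fell by 0.35 (SE 0.09, adjusted p = 0.0116), and the trafficking adaptor Trak2 fell by 0.24 (SE 0.08, adjusted p = 0.0458) in 1 of 2 probe sets. Without control naive replicate 2 the calls of Nlgn2 (0.33), Kcnj9 (0.27), Kctd12 (-0.27) and Trak2 (-0.23) were lost, with the difference in brackets. Without control trained replicate 2 those of Nlgn2 (0.38), Kctd12 (-0.33) and Kcnj9 (0.43) were lost. The Kcnj9 call was also lost without control trained replicate 1, at a difference of 0.33. It was lost as well without alcohol naive replicate 3 (0.35, adjusted p = 0.0618) or 4 (0.36, adjusted p = 0.0547), or alcohol trained replicate 2 (0.35, adjusted p = 0.0555). The Trak2 call was lost in 15 of the 18 fits that left out 1 array. These include fits without an isocaloric array, where the difference stayed at -0.24. Isocaloric arrays enter that comparison only through the shared estimate of the spread. Without control trained replicate 1 the Trak2 difference was -0.16. Among the GABA-A subunits that were no members, limma called 0 of 4 tested in the 3 diet comparisons, with 2 (alcohol), 1 (isocaloric) and 0 (alcohol against isocaloric) at an unadjusted p under 0.05. Gabra3, an alpha subunit, differed from control by 0.68 (SE 0.24, adjusted p = 0.0569) on alcohol and by 0.73 (SE 0.26, adjusted p = 0.0937) on isocaloric diet. Gabrb1, the gene next to Gabra4 on chromosome 14, differed by 0.20 (SE 0.09, adjusted p = 0.110) and 0.09 (SE 0.09, adjusted p = 0.588). Slc32a1, the vesicular GABA transporter, differed by 0.25 (SE 0.11, adjusted p = 0.101) and 0.26 (SE 0.11, adjusted p = 0.167).

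Between alcohol and isocaloric diet 0 of the 34 were called by limma, with 7 at an unadjusted p under 0.05, where 3.06% of all tested probe sets were called and 21.7% had such a p. The smallest p-values were those of Plcl1, a phospholipase-like protein that binds GABA-A receptor partners (-0.34, SE 0.09, adjusted p = 0.0539), Kctd12 (-0.25, SE 0.08, adjusted p = 0.0881) and Gabarapl1, a relative of the GABA-A receptor-associated protein (0.18, SE 0.07, adjusted p = 0.123). For training limma called 0 of 34, with 3 at an unadjusted p under 0.05, where 0.0105% of all were called. The smallest p-values there were those of the potassium channel subunits Kcnj6 (0.27, SE 0.10, adjusted p = 0.758) and Kcnj3 (-0.21, SE 0.12, adjusted p = 0.876) and the trafficking adaptor Trak1 (0.16, SE 0.06, adjusted p = 0.758).

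**Figure D5:**
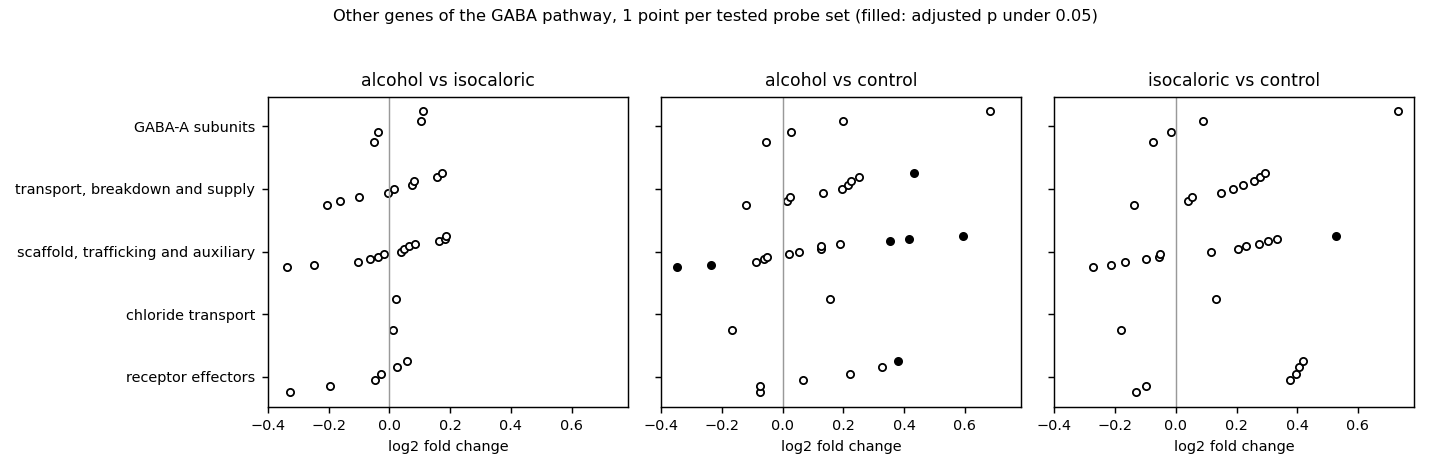
Log2 fold change of the 34 tested probe sets of the other pathway genes, by class, in the 3 diet comparisons; filled points have an adjusted p under 0.05. Filled points are 7 for alcohol against control, 5 of them above 0, and 1 for isocaloric against control.

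The listed markers of interneurons, which make GABA, were not called, and this list left out Gad1 and Gad2. Of 13 listed interneuron markers, 8 were tested, and limma called 0 of them in the 3 diet comparisons and in training, with 1 to 3 at an unadjusted p under 0.05 and with median differences from control of -0.04 on alcohol and -0.02 on isocaloric diet. Their summed log2 signal over 10 genes ran from 11.60 to 11.76 on control, from 11.41 to 11.73 on isocaloric and from 11.45 to 11.72 on alcohol arrays. The sum was taken before the logarithm, so the brightest gene, Cck (signal 988 to 1698), weighs most in it and dim markers count little. By the brightest probe set of each gene, the interneuron markers differed from control by -0.17 (Cck) to 0.41 (Calb2) on alcohol and by -0.21 (Sst) to 0.26 (Slc32a1) on isocaloric diet. Endothelial and mural markers were called in the comparisons with control: all 4 of 4 tested were higher on both diets, with medians of 0.93 and 0.89. Of these, Rgs5 differed least (0.60 and 0.65) and Cldn5 most (1.39 and 1.29). Their summed log2 signal over 6 genes was 7.89 to 8.28 on control, 9.06 to 9.29 on isocaloric and 9.09 to 9.29 on alcohol arrays, and their part in the members' differences was not tested. By the brightest probe set of each gene, limma called 0 of 6 neuronal, 0 of 5 oligodendrocyte and 0 of 3 microglial markers in the 3 diet comparisons. Of 7 astrocyte markers, 1 was higher for alcohol against isocaloric diet (Aldoc, 0.36, adjusted p = 0.0268), and 1 was lower against control on alcohol (Aqp4, -0.28, adjusted p = 0.0323) and 1 on isocaloric diet (Slc1a3, -0.36, adjusted p = 0.0397). Dimmer probe sets of some of these genes were called against control: Gja1 was higher by 0.62 on alcohol (adjusted p = 0.0099) and by 0.64 on isocaloric diet (adjusted p = 0.0277), and on alcohol Rbfox3 was higher by 0.48 (adjusted p = 0.0047), Mbp was higher by 0.37 (adjusted p = 0.0214) and Nefl was lower (-0.27, adjusted p = 0.0216). The part of these in the members' differences was not tested. The Actb log2 ratio of 3′ to 5′ probe sets, a sign of RNA quality, was 0.54 to 0.73 on control, 0.32 to 0.51 on isocaloric and 0.19 to 0.67 on alcohol arrays. Over all 9520 tested probe sets, this ratio as a covariate lowered the calls from 1895 to 315 for alcohol against control. For isocaloric against control they fell from 671 to 38. Among the members, 3 were called for alcohol and 1 for isocaloric against control with this covariate. The same counts were found without the 6 arrays high in Ttr. Gad1 probe set 1370760_a_at was called in both settings and in both comparisons. The calls lost had adjusted p from 0.0905 to 0.178 for alcohol and from 0.125 to 0.517 for isocaloric against control with the covariate, and from 0.0605 to 0.350 and from 0.153 to 0.248 without the arrays high in Ttr.

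Likeness to each member was measured by Pearson's r of log2 level over the 18 arrays, which share their diet groups and scaling. By its brightest probe set, Gabra5 was most like Rtca (r = 0.92), Rnf111 (0.82) and Lias (0.81), with r of 0.90, 0.85 and 0.80 over the 14 arrays without the control diet. Gabbr2 was most like Disp2 and Extl3 (both 0.95) and Syn1 (0.94), but over those 14 arrays r was 0.49, 0.58 and 0.59. By rank (Spearman's rho) over all 18 arrays the values were 0.41, 0.79 and 0.71. Gabrb2 was most like Ccn2 (0.88), Ylpm1 (0.87) and Polb (0.84), with 0.83, 0.72 and 0.75 over the 14 arrays. Gad2 was most like Chpf2 (0.83), Cdk5r1 (0.80) and Mafk (0.79), with 0.68, 0.59 and 0.58. Gabbr1 was most like Ap2m1 and Thra (both 0.79) and Cx3cl1 (0.78), with 0.81, 0.78 and 0.73. Gabra4 was most like Slit1, Acaca and Dtna (all 0.74), with 0.67, 0.29 and 0.58. Gad1, by its probe set 1368344_at, was most like Plcb1, Vsnl1 and Smarca4 (all 0.73), with 0.32, 0.43 and 0.70.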

How the data were processed

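For each of 18 rat hippocampus arrays the authors deposited 1 intensity for every probe set, on a linear scale. MAS5 is named for 2 arrays per the submitters' processing notes, and for the rest no algorithm is named in those notes. The deposited arrays had a 2% trimmed mean close to 150, so a change of total RNA cannot be seen. Intensities were analysed as log2(value + 6.06), where 6.06 is the 10th percentile of all values, and fold changes of dim probe sets are therefore understated. Probe sets with a mean under the 40th percentile and the 57 Affymetrix controls were left out, and 9520 were tested. limma 3.58.1 (R 4.3.3) fitted 6 group means with lmFit, then eBayes (trend on), two-sided, with Benjamini-Hochberg adjustment at 0.05, and was tested on simulated data. Tables and plots were made with Python 3.11.15, pandas 2.3.3, numpy 2.4.6, scipy 1.17.1 and matplotlib 3.10.9.

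Groups came from the sample descriptions. In the platform annotation 12783 probe sets had 1 symbol, 312 several and 2822 none, and 12748 of the 12783 matched a RefSeq gene. Every member probe set is named. Pathway genes are named when called in an averaged comparison, or as the 3 with the smallest p where 0 were called, and alike genes are the 3 with the highest r. The marker genes, Gabra3, Gabrb1 and Slc32a1 were named after their values were seen. The members and lists were chosen with earlier results of these data known. Alternatives covered the pseudocount, filter, normalization, weights, prior, samples, covariates and each array left out in turn. Arrays with Ttr more than 1 log2 unit above the median of all arrays are those called high in Ttr.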

Additional observations from a re-analysis of the deposited data

Results flagged for a closer look

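In the sets of 4 arrays of 1 group, 4 of the 42 examined held an array whose gap to its nearest neighbour took up nearly the whole range of the set, and chance alone gives about 1 in 20. For Gabra5, alcohol trained replicate 1 was lowest, at 8.74 against 9.09 to 9.12, a gap of 0.917 of the range. For Gabbr1 probe set 1375720_at, isocaloric trained replicate 2 was lowest, at 9.41 against 9.63 to 9.65, a gap of 0.912 of the range. For Gabra4, alcohol naive replicate 1 was highest, at 7.58 against 7.26 to 7.29, also a gap of 0.912. For Gabrb2 probe set 1377773_at, alcohol trained replicate 4 was lowest, at 8.77 against 9.18 to 9.25, a gap of 0.866.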

How the results depend on the processing

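The 14 called member differences were recomputed under 32 alternatives, 18 of which left out 1 array. Of 444 values, 359 kept their direction and call, 85 kept the direction without the call, and 0 reversed. Both Gad1 calls (probe set 1370760_a_at) and the alcohol against control call of Gabbr2 probe set 1368952_at held wherever they were run. For alcohol against isocaloric diet the count of called members (1) was 2 after median centring and with array weights, 0 with the Gapdh ratio as a covariate and 0 without the arrays high in Ttr, and 0 to 1 with 1 array left out. For alcohol against control (7) it was 3 with the Actb ratio as a covariate, 3 without the arrays high in Ttr, and 4 to 8 with 1 array left out. For isocaloric against control (6) it was 3 after median centring, in a fit of only the groups compared and with the Gapdh ratio as a covariate, 1 with the Actb ratio, 1 without the arrays high in Ttr, and 1 to 6 with 1 array left out. For trained against naive (0) it was 0 to 1 with 1 array left out, and for training in isocaloric diet (0) it was 1 with array weights. Calls over all tested probe sets shifted too. For alcohol against isocaloric diet the 291 became 638 after median centring, 1207 with array weights and 25 with the Gapdh ratio. For alcohol against control the 1895 became 315 with the Actb ratio. For isocaloric against control the 671 became 1216 after median centring and 172 in the groups compared alone. They became 637 with the Gapdh ratio and 38 with the Actb ratio. Training in isocaloric diet had 46 calls with array weights. The cause of these shifts was not tested.

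With the replicate number as a block (replicate block), 4 members were called for alcohol and 3 for isocaloric against control, and 1 for alcohol against isocaloric diet. Over all tested probe sets this setting called 1138, 418 and 213, in that order. The 36 pairs of arrays with the same number in different groups correlated in their deviations at -0.23 to 0.13 (median -0.03). For 96 pairs of different number the correlations were -0.35 to 0.35 (median 0.01). In a group of 2 arrays the 2 deviations from the group mean are exact opposites, so many of these values come in mirrored pairs. They therefore cannot show whether arrays of the same number belong together. Over all probe sets, median centring changed the alcohol against isocaloric calls from 140 higher and 151 lower to 565 higher and 73 lower, and isocaloric against control from 404 and 267 to 232 and 984. With 2 arrays in each control group, whether a difference is called can turn on 1 array, as it did for most calls here. The direction of the 14 called member differences was kept in all 444 values. Fits that leave a group with 1 array assume that it varies like the other groups.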
